A study of Mus musculus and Acomys cahirinus with 18 samples.

Results

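The insulin-like growth factor (IGF) genes and the genes of their binding proteins were followed in the obstructed kidney of 2 rodents, the mouse and the spiny mouse Acomys cahirinus. The set was chosen by gene symbol and holds 10 genes: the ligand genes Igf1 and Igf2, the receptor gene Igf1r, and the binding protein genes Igfbp1 to Igfbp7. The authors' 4 deposited tables of comparisons hold 13545 entries with 6385 symbols. Of the 10 genes, 5 were in at least 1 table with 9 entries between them, 5 were in none, and 0 were in all of them.

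IGF1 and IGF2 are small secreted hormones that act through the IGF1 receptor, a tyrosine kinase, to drive growth and survival. Most of the IGF in tissue and blood is held by binding proteins, which carry it, keep it from the receptor, or release it when proteases cut them. In the kidney IGF1 is known to raise blood flow and filtration, and growth hormone is among its inducers.

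The animals were adult males, C57BL/6 mice or Acomys, all labelled wild type, and the kidneys were perfused with cold saline before freezing. In unilateral ureteral obstruction the left ureter is closed, which dams urine in the kidney and injures it. Each species gave 3 sham operated kidneys, 3 at day 2 and 3 at day 5, which made 18 libraries. Sham mice were aged between 7.0 and 14.0 weeks, obstructed mice 10.1 weeks at day 2 and between 10.1 and 14.0 weeks at day 5. Sham Acomys were aged between 9.9 and 14.3 weeks, obstructed Acomys between 10.3 and 14.3 weeks at day 2 and between 9.9 and 10.4 weeks at day 5. Whether age moves any of these genes was not tested.

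Each table sets 1 obstructed group against its own species' sham kidneys and lists what passed an FDR, or false discovery rate, of 0.05. A table gives 1 fold change per gene, so values per library were not analysed here and depth is unknown. All fold changes below are log2 values of obstructed over sham, read so because edgeR writes them that way. logCPM is the log2 of mean CPM (read counts scaled to library size) over all libraries of the authors' fit. CPM as a unit does not divide by gene length, and whether the authors' fit adjusted for length is not given. The error given with a fold change is a standard error rebuilt from the FDR. A gene that is not listed may be unchanged, too variable or untested. As these are whole kidneys, fewer cells of a type and less RNA per cell cannot be told apart.

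The genes listed in more than 1 table were Igfbp1, Igfbp2 and Igfbp5, and the mouse sequence around the start of each is shown because these genes carry the results. The windows run from 250 bases before to 50 bases after a RefSeq start, 5′ to 3′ on the gene's strand, in GRCm38.p6. That build was not used to make the values, for which the submitters' processing notes name mm9. The Igfbp1 window is chr11:7197537-7197836 on the plus strand, that of Igfbp2 is chr1:72824230-72824529 on the plus strand, and that of Igfbp5 is chr1:72874816-72875115 on the minus strand. Capitals mark CAAAACA in Igfbp1, the core of the insulin response element known from this gene's promoter, and GGGCGG, a GC box, in Igfbp2. No capitals stand in Igfbp5.
Igfbp1: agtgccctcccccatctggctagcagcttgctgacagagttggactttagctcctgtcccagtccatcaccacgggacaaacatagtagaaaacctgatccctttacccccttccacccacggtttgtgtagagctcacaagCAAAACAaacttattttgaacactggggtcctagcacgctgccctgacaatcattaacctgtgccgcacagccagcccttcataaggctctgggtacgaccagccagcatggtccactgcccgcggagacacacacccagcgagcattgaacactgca
Igfbp2: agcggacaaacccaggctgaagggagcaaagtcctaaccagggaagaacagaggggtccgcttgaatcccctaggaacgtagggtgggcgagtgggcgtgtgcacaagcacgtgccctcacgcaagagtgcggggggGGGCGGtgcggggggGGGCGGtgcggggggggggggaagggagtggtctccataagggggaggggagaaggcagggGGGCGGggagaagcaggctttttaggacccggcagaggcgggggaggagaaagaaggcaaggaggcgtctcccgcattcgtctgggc
Igfbp5: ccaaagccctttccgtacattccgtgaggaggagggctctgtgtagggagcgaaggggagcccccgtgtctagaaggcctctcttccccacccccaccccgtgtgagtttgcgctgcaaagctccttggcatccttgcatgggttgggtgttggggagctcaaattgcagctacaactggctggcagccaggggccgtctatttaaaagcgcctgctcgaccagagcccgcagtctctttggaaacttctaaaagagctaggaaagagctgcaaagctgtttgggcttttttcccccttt

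All 10 genes had at least 1 such window, 14 in all. CAAAACA, searched on both strands as were the other motifs, was in 1 of the 14, that of Igfbp1 at position -108 from the start, and in 6.28% of all 32851 RefSeq windows. GGGCGG was in 5 of 14 and in 35.7% of all. The TATA box TATAAA was in 2 of 14, those of Igfbp4 and Igfbp6, and in 13.6% of all. AAACA, a core that CAAAACA contains, was in 8 of 14 against 50.5%, the hypoxia core ACGTG in 3 of 14 against 19.6%, and the AP-1 motif TGANTCA in 2 of 14 against 7.81%. Igfbp2 has another RefSeq start, not printed, whose window was 57.3% G and C and held 0 matches to GGGCGG. The printed window of Igfbp2 was 67.0% G and C, that of Igfbp5 56.3% and that of Igfbp1 54.3%, beside a median of 52.7% over all windows.

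The mouse tables held falls of binding protein genes. On day 2 Igfbp1, Igfbp2, Igfbp4 and Igfbp5 were listed, all 4 fell, and the other 6 genes were not listed. On that day 41.7% of all entries had fallen, and 15.7% of the protein-coding genes that RefSeq annotates were listed at all. On day 5 Igfbp1 and Igfbp5 were listed as fallen and Igf1 as risen, with 7 genes not listed, where 39.1% of entries had fallen and 21.6% of annotated genes were listed. The annotated genes stand in for the tested ones, whose number the tables do not give.

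By symbol, the only gene of the set listed in Acomys was Igfbp2, which rose on both days. No symbol was given for 644 of 1765 Acomys entries on day 2 and 1094 of 2500 on day 5. With a match by UniProt entry name as well, the counts stayed at 1 risen and 0 fallen on each day. Of all Acomys entries 89.9% had risen on day 2 and 78.6% on day 5. The entries covered 5.09% of annotated mouse protein-coding genes on day 2 and 6.4% on day 5, by the mouse gene that the authors assigned, and the other 9 genes of the set were not among them on either day. That a gene was listed in mouse and not in Acomys does not show that the species differ.

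**Figure D1:**
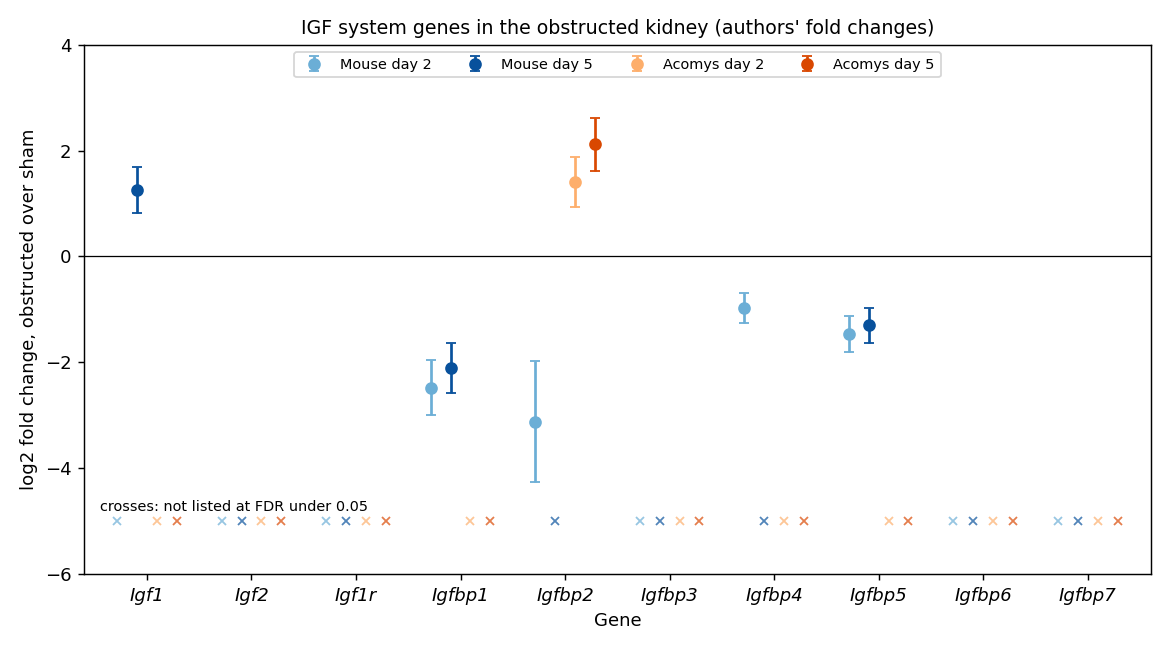
log2 fold change of obstructed over sham kidney (vertical axis) for the 10 genes (horizontal axis) in the 4 comparisons, by colour; points are the authors' values, bars 1 rebuilt standard error, and crosses mark genes that were not listed. Igfbp1, Igfbp4 and Igfbp5 stand below 0 in mouse, Igf1 above 0 on mouse day 5, and Igfbp2 below 0 on mouse day 2 and above 0 in Acomys on both days.

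Igfbp1, whose product is raised in fasting liver and suppressed by insulin, fell by 2.47 on mouse day 2 in the authors' deposited table (FDR 2.47e-05, rebuilt error 0.518). That is 18.0% of the sham level, or 5.56-fold lower. On day 5 it stood at -2.11 in the authors' deposited table (FDR 5.84e-05, rebuilt error 0.476), which is 23.2% of sham. The 2 days share the sham kidneys, and the difference between them was not tested. Among falls the gene had rank 218 of 1633 on day 2 and 350 of 2096 on day 5, when the median falls were -1.46 and -1.34. Its logCPM was 2.62.

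Igfbp5 encodes a binding protein that also attaches to matrix. It was at -1.46 on mouse day 2 (FDR 0.000104, rebuilt error 0.334) and at -1.30 on day 5 (FDR 0.000245, rebuilt error 0.323) in the authors' deposited tables. The obstructed kidney thus held 36.3% and 40.6% of the sham level, changes close to the median fall of each table. Its logCPM was 8.14.

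Igfbp4, which encodes an inhibitory binding protein, had the smallest fall of the 4 on mouse day 2, -0.97 in the authors' deposited table (FDR 0.00274, rebuilt error 0.283, logCPM 9.52). This left 51.1% of the sham level. It was not listed on day 5, when the smallest fall listed at a logCPM within 0.5 of its own was 0.77 in size, over 49 falls.

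Igfbp2 encodes a binding protein that carries an integrin-binding motif and is abundant in fetal tissue. It had the steepest fall of the set on mouse day 2, -3.12 in the authors' deposited table, which leaves 11.5% of sham. The FDR was 0.0192 and the rebuilt error 1.14, while the falls listed on that day within 0.5 of its logCPM (2.57) had a median rebuilt error of 0.417. The 95% interval ran from -5.35 to -0.88, and whether 1 library sets the fall was not tested. On mouse day 5 Igfbp2 was not listed, where the smallest fall listed at that expression was 0.88 in size. With an error as large as that of Igfbp2 on day 2, a much larger fall could also go unlisted.

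In Acomys 1 locus carries the name of Igfbp2. It rose by 1.41 on day 2 (FDR 0.0226, rebuilt error 0.473) and by 2.11 on day 5 (FDR 0.000832, rebuilt error 0.507) in the authors' deposited tables. These are 2.66-fold and 4.33-fold higher than sham, with a logCPM of 3.18. Both rises lay below the median rise of their tables, 2.15 and 2.27, and the day 2 rise had rank 1286 of 1587. At FDR under 0.01 the day 2 rise is lost, as is the mouse day 2 fall of Igfbp2, and the day 5 rise is kept. How reads of related binding protein genes were told apart in Acomys is not given in the sources used here.

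**Figure D2:**
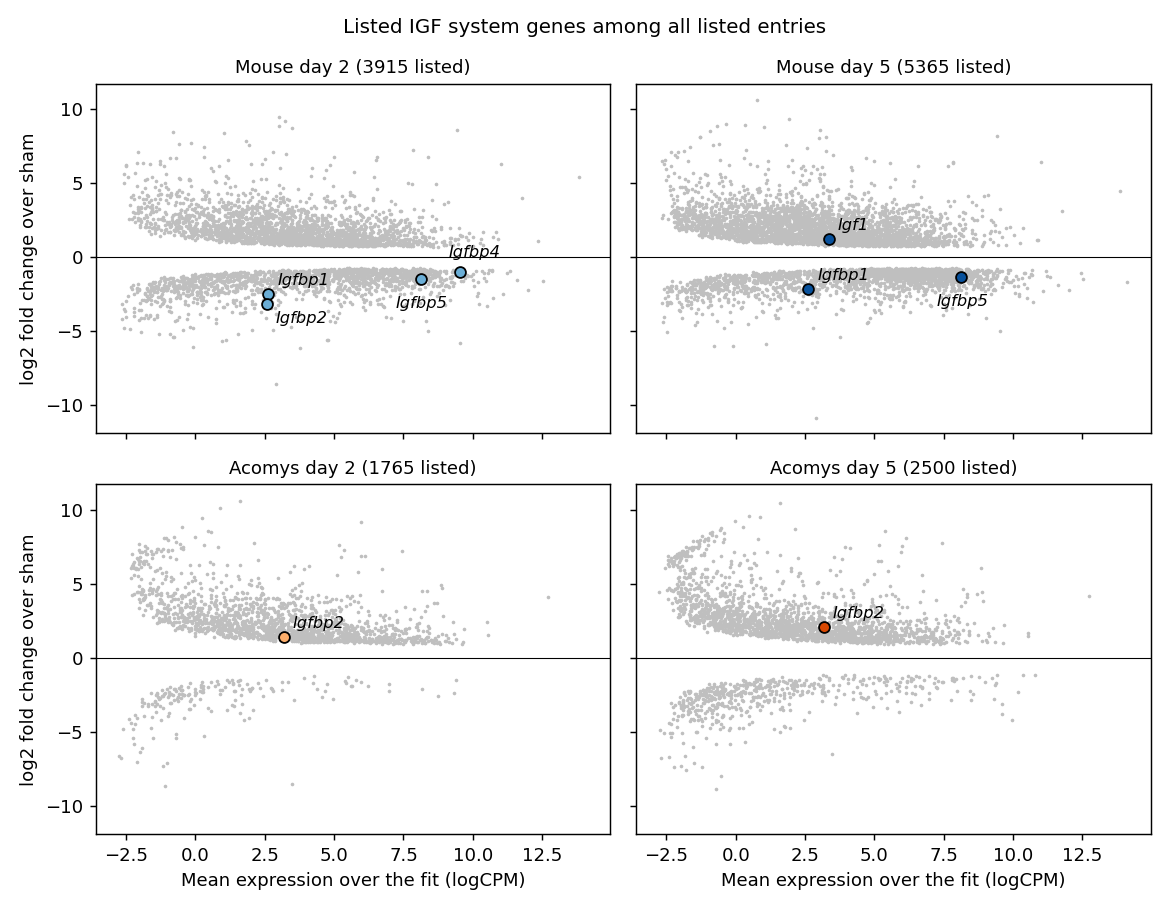
log2 fold change over sham (vertical axis) against mean expression as logCPM (horizontal axis) for every listed entry (grey) in the 4 comparisons, with the genes of the set in colour. Igfbp1 and Igfbp2 lie side by side at a logCPM of 2.62 and 2.57 on mouse day 2, and Igfbp2 in Acomys exceeds 40 of 210 rises within 0.5 of its logCPM on day 2 and 152 of 235 on day 5.

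Igfbp2 is the only gene of the set listed in both species on the same day, and its day 2 fold changes had opposite signs. The Acomys minus mouse difference was 4.53 (rebuilt error 1.23, 95% interval 2.11 to 6.94). A two-sided normal test of this difference gave an adjusted p of 0.00588, Benjamini-Hochberg over the 729 symbols listed in both species on that day. Of these symbols 3.7% had opposite directions and 5.08% passed the same test, and by the size of an Acomys excess Igfbp2 had rank 9 of 729. All 27 symbols with opposite directions passed, and the p of Igfbp2 was the largest among them. Since every symbol entered was already listed in both tables, the test adds little to the opposite signs themselves. The test rests on an assumed 10000 tested genes. With the FDR itself in place of the p-value, which makes the errors larger, the adjusted p was 0.0572 and the call ended. On day 5, with Igfbp2 not listed in mouse, 0 genes of the set could be compared.

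**Figure D3:**
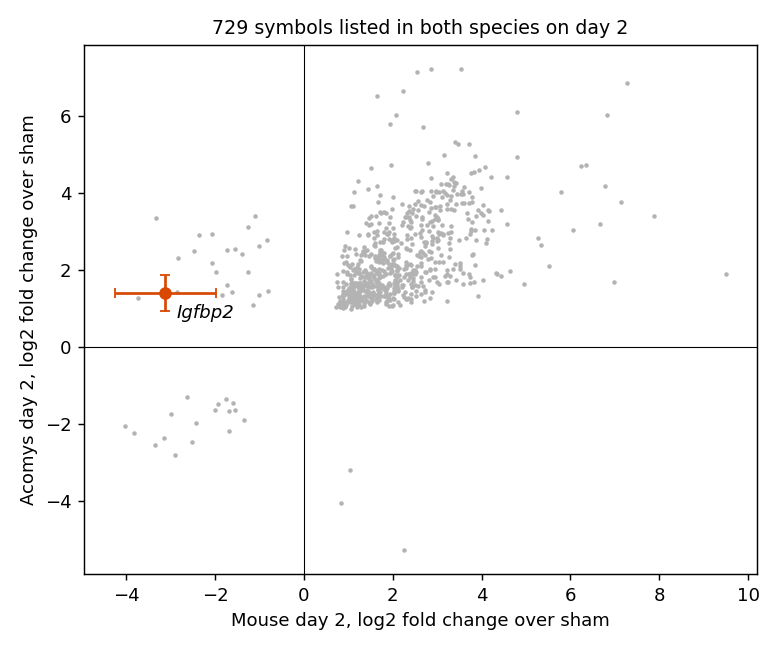
Mouse day 2 (horizontal axis) against Acomys day 2 (vertical axis) log2 fold change over sham for the 729 symbols listed in both species; Igfbp2 is in orange with 1 rebuilt standard error each way. Igfbp2 lies in the quadrant of 24 genes that fell in mouse and rose in Acomys.

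Igf1, the gene of the main postnatal ligand, rose on mouse day 5 by 1.25 in the authors' deposited table (FDR 0.00867, rebuilt error 0.430, logCPM 3.36). This is 2.38-fold higher than sham and below the median rise of that table, 1.89, with rank 2513 of 3269 rises. On mouse day 2 it was not listed. The 309 rises listed that day within 0.5 of its logCPM had a smallest value of 0.81 and a median of 1.65. A rise larger than that smallest value could also go unlisted. In FDR order Igf1 had rank 4116 of 5365 entries on day 5, behind Igfbp1 at 1669 and Igfbp5 at 2237.

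Igf2, the fetal ligand gene, and Igf1r were in none of the 4 tables. Neither were Igfbp3, which encodes the main carrier of IGF in blood, Igfbp6, whose product prefers IGF2, and Igfbp7, whose product binds IGF weakly and is known as a urinary marker of kidney stress. Their expression in these kidneys, and any change too small or too variable for the threshold, cannot be read from lists of significant genes.

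The other genes of the pathway were 67 genes in 8 lists. In mouse 10 rose, 5 fell and 52 were not listed on day 2, and 14 rose, 7 fell and 46 were not listed on day 5. Acomys gave 5 rises and 0 falls on day 2 and 7 rises and 0 falls on day 5. Of all entries on days 2 and 5, 41.7% and 39.1% had fallen in mouse, and 89.9% and 78.6% had risen in Acomys. The medians of the listed genes were 1.13, 1.07, 1.87 and 1.79 in that order, beside 1.03, 1.14, 1.99 and 1.95 over all entries of the tables.

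Of the 4 receptor and serum partner genes Insrr, which encodes an insulin receptor relative that senses alkali in the kidney, fell by 2.75 on mouse day 2 (FDR 1.77e-06) and by 2.27 on day 5 in the authors' deposited tables. Igf2r, the clearance receptor for IGF2, was at -0.80 on mouse day 5 (FDR 0.0375) in the authors' deposited table. Insr and Igfals were in none, and Acomys listed 0 of the 4.

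The proteases that cut binding proteins, with their inhibitors, numbered 6. On mouse day 2 this list had 2 rises and 1 fall, and on day 5 it had 3 rises and 1 fall. Pappa2, a protease gene for the Igfbp3 and Igfbp5 products, was at -1.52 (FDR 0.0146) and -1.30 (FDR 0.027) on mouse days 2 and 5 in the authors' deposited tables. The expression of Pappa2 was low, with a logCPM of -0.13, and its rebuilt errors were 0.535 and 0.526. Stc2, a stanniocalcin that inhibits this protease family, rose by 2.15 (FDR 1.77e-06) and 2.87 (FDR 1.09e-07), and Stc1 by 1.36 on day 5 in the authors' deposited tables. Adam12, a metalloprotease gene, rose in all 4 comparisons, by 2.19 and 3.24 in mouse and by 2.70 and 3.48 in Acomys in the authors' deposited tables, and it was the only rise of this list in Acomys.

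In the growth hormone axis, a list of 6, the receptor gene Ghr fell and the feedback inhibitor gene Socs2 rose on both mouse days. The authors' deposited tables gave Ghr at -0.94 (FDR 0.0151) and -1.47 (FDR 4.63e-05), and Socs2 at 2.30 (FDR 6.78e-05) and 2.49 (FDR 2.09e-05). Acomys listed 0 of them on day 2 and 2 on day 5, where Socs2 rose by 1.95 and the kinase gene Jak2 by 1.38 in the authors' deposited table.

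The relay from the receptor, 28 genes of adaptors and of the PI3K, AKT and mTOR chain, was mostly not listed. It gave 3 rises and 2 falls on mouse day 2, 4 rises and 3 falls on mouse day 5, and 1 rise on either Acomys day. Irs1, the receptor's adaptor gene, was at -1.44 (FDR 0.000107) and -1.01 on the mouse days, and the kinase gene Mtor at -1.01 and -1.25 in the authors' deposited tables. Eif4ebp1, a repressor of translation that mTOR switches off, rose by 2.15 and 1.74 in mouse and by 1.87 and 1.79 in Acomys in the authors' deposited tables. On mouse day 5 the authors' deposited table also held the regulatory subunit gene Pik3r1 at 0.94 and the catalytic subunit gene Pik3cb at -0.78. Pik3r1 and Akt1 had been at 1.28 and 0.84 on day 2 in the authors' deposited table.

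The list of FOXO factors with their stress targets, 8 genes, gave 3 rises on mouse day 2, 2 on mouse day 5 and 1 on either Acomys day, with 0 falls. Trib3, a pseudokinase gene, rose by 3.58 and 2.53 in mouse and by 1.64 and 1.66 in Acomys, Ddit4 by 1.13 and 1.24 in mouse, and Sesn3 by 1.01 on mouse day 2 in the authors' deposited tables. Of the 3 genes for proteins that bind Igf2 mRNA, Igf2bp2 rose in mouse by 1.57 (FDR 3.98e-05) and 1.07 in the authors' deposited tables. The 4 other genes for proteins with an IGFBP domain were in no table.

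Among 8 imprinted growth genes, mouse listed 0 on day 2 and 3 rises on day 5, and Acomys listed 2 rises on each day. H19, the noncoding RNA gene beside Igf2 in the genome, rose by 5.60 (FDR 2.25e-05) and 6.55 (FDR 1.58e-05) on the Acomys days and by 3.51 (FDR 0.0173) on mouse day 5 in the authors' deposited tables. In mouse its logCPM was low, 0.64, and the rebuilt error of the day 5 rise was 1.32. Peg3 rose in Acomys by 1.50 and 1.77, and Meg3 and Nnat in mouse by 2.04 and 1.02 on day 5 in the authors' deposited tables. Igf2 itself was listed beside H19 in 0 tables.

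**Figure D4:**
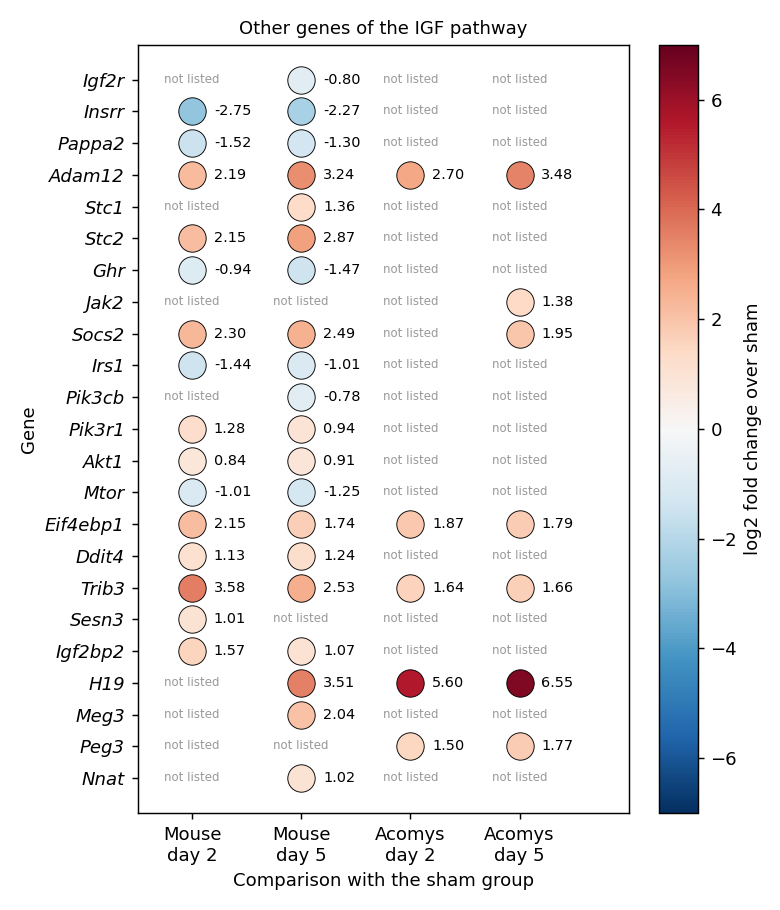
log2 fold change over sham (colour and printed value) of pathway genes outside the set (vertical axis) in the 4 comparisons (horizontal axis). Falls stand in the mouse columns only, where 89.9% and 78.6% of all Acomys entries had risen on days 2 and 5. Adam12, Eif4ebp1 and Trib3 rose in all 4 comparisons.

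Markers of kidney cell types moved in the same tables. Tubule markers were among the entries of every comparison except Acomys day 2. All 10 proximal tubule markers fell on both mouse days (medians -1.60 and -2.00), while Acomys listed 0 of 10 on day 2 and 1 fall on day 5. In mouse Igfbp1 and Igfbp5 were listed as fallen on both days, and Igfbp2 and Igfbp4 on day 2 only. Of 10 loop, distal tubule and collecting duct markers 7 fell on either mouse day, and 0 and 8 fell on Acomys days 2 and 5. Fibroblast and pericyte markers rose in 6 and 10 of 10 cases in mouse and in 7 of 10 on either Acomys day, and macrophage markers in 9 of 10 on both mouse days and in 8 and 10 of 10 in Acomys. On mouse day 5, the day of the Igf1 rise, the medians of these last 2 lists were 2.42 and 3.61.

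Markers with opposite directions in the 2 species on day 2, as for Igfbp2, included the hepatocyte marker Ttr, at -3.73 in mouse and 1.28 in Acomys, and the urothelial marker Upk3a, at -1.84 and 1.36, in the authors' deposited tables. The 6 hepatocyte markers gave 2 and 3 falls in mouse and 3 and 1 rises in Acomys on days 2 and 5. The 5 urothelial markers gave 1 rise and 2 falls, then 1 rise, in mouse, and 2 rises, then 1, in Acomys. Endothelium, of 10 markers, gave 1 fall, then 1 rise, in mouse and 0, then 1 rise, in Acomys. Podocytes, of 6, gave 2 rises on mouse day 5 alone, and adipocytes, of 5, gave 1 rise on either Acomys day alone. The part of any of these cell types in the values of the IGF genes was not tested.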

How the data were processed

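Kidney RNA was sequenced in 18 libraries, grouped by species and treatment in the labels. Reads were processed with Salmon and edgeR against mm9, per the submitters' processing notes. Tool versions, filters, the Acomys reference and how many genes were tested are not given in these sources. Per the file headers, each of the 4 deposited tables holds the authors' log2 fold change (base not stated, read as edgeR writes it), their logCPM, also on a log2 scale, and their FDR, an adjusted p-value. The logCPM was identical on both days for all 3369 mouse genes and 1319 Acomys loci listed on both.

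No gene could be refitted. Genes were matched by the authors' symbol, and no symbol of a table was repeated. The rebuilt standard error is the size of the fold change over the normal quantile of p, with p taken as FDR times rank over an assumed 10000 tests. The species difference was tested with a two-sided normal test in Python 3.11.15 with scipy 1.17.1. On simulated data of 10000 genes the test recovered 95.6% of added species differences and passed 0.745% of the others, among genes listed in both. The number of tests was known there, and large differences were added to genes with large changes. Errors were typically smaller than that of Igfbp2 in mouse. The simulation therefore cannot show how the test does on Igfbp2 or with a wrong number of tests. The members and lists were chosen with earlier results of these data known. Named genes were the members, and per list and table up to 3 rises and 3 falls of largest size. The rule's search for genes of like pattern needed a member in all tables and found 0. Some items are not reported here. The authors' FDR values come from their fit to these libraries. The species test used errors rebuilt from those values and no values per library. Alternatives were stricter thresholds, a minimum change, other matching of Acomys loci and other assumed numbers of tests.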

Additional observations from a re-analysis of the deposited data

Results flagged for a closer look

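The day 2 fold changes of Igfbp2 had opposite signs in mouse and Acomys, with an Acomys minus mouse difference of 4.53 on the log2 scale. The fold change was -3.12 (FDR 0.0192) in mouse and 1.41 (FDR 0.0226) in Acomys in the authors' deposited tables. The difference had an adjusted p of 0.00588 by a two-sided normal test over 729 symbols. All 27 symbols with opposite directions passed this test. As only symbols listed in both species entered, it adds little to the opposite signs. With the FDR in place of the p-value, the adjusted p of the same test was 0.0572. The rebuilt error of the mouse value, 1.14, was more than that of the Acomys value, 0.473. Without values per library, the direction in single kidneys was not analysed here.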

How the results depend on the processing

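Of 41 alternative values for 12 results, 36 stayed within 1.5 times the main count or on the same side of the threshold. Many of these were counts of 0, which a stricter threshold cannot raise. A stricter threshold also cannot reverse a count, so the tally does not measure how firm the results are. At FDR under 0.001 the falls on mouse day 2 went from 4 to 2, Igfbp1 and Igfbp5, and the rise of Igf1 on mouse day 5 was lost, a count of 0. The rise of Igfbp2 on Acomys day 2 was lost, also a count of 0, at FDR under 0.01 and at FDR under 0.001. The falls on mouse day 2 became 3 with a minimum change of 1, without Igfbp4, and also 3 at FDR under 0.01, without Igfbp2. The species difference of Igfbp2 kept its size, 4.53, and had an adjusted p of 0.00588, 0.00195 and 0.000623 with 10000, 20000 and 40000 assumed tests, and 0.0572 with the FDR in place of the p-value. The last alternative was chosen after seeing the data. The settings of 20000 and 40000 were planned for the count of genes that differ between species, and were added later for the size of this difference. Other matching of Acomys loci changed 0 values, since 1 locus carries each symbol. No paired analysis was possible because the deposited tables hold comparisons and no values per library, and for the same reason leaving out each replicate was not run. Depth is unknown, so what it limits cannot be said.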

Other observations

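Igfbp2 and Igfbp5 are next to each other among protein-coding genes on mouse chromosome 1 in the RefSeq annotation, and both fell on mouse day 2, to -3.12 and -1.46 in the authors' deposited table. On day 5 Igfbp5 was still listed and Igfbp2 was not, and in Acomys Igfbp2 was listed and Igfbp5 was not. Igfbp1 and Igfbp3 are likewise neighbours on chromosome 11, where Igfbp1 fell on both mouse days and Igfbp3 was in no table. Igfbp4 lies beside Top2a, the topoisomerase gene of dividing cells, which rose by 3.31 on the same mouse day in the authors' deposited table.

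The listing of Igfbp2, fallen on mouse day 2, not listed on mouse day 5 and risen on both Acomys days, was found for 5 of 6385 symbols. Among the other 4 were Dscaml1, Fmod and Rarres2, named after their values were seen. Fmod, which encodes the collagen-binding fibromodulin, was at -1.55 in mouse and 2.56 in Acomys on day 2 in the authors' deposited tables. Rarres2, which encodes the chemoattractant chemerin, was at -2.06 and 2.93 there. The listing of Igfbp1 and Igfbp5, fallen on both mouse days and in neither Acomys table, was found for 1258 symbols. Acomys entries without a symbol could not enter these counts. That of Igf1, risen on mouse day 5 alone, was found for 1071.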
